A study of Mus musculus with 2 samples.

Results

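Ion channel genes of mouse lung fibroblasts were examined in 1 library made after saline and 1 made after bleomycin. Members were all genes whose symbol began with Kcn, Cacn, Scn and a digit, Trp and a family letter with a digit, Clcn, Ano and a digit, or Piezo, and whose counts summed to at least 5 over both libraries. Members were thus chosen by their symbol and by the sum of both counts, which is given as a description only, while the split of that sum between the libraries was not used. Of 16040 genes in the table, 111 had such a symbol and 45 of these were members, 19 for potassium, 5 for sodium, 8 for calcium, 4 for cations without strict selectivity and 9 for chloride. A further 28 matched symbols were at 0 in both libraries and 38 had 1 to 4 counts.

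All mice were of the Col1a2-EGFP strain, in which a type 1 collagen gene drives a green reporter, and received saline or bleomycin, a DNA-damaging drug that scars the lung, into the trachea. Their lungs were taken on day 14, lineage-negative cells with the reporter were sorted, and a tag from near each transcript's 3′ end was counted (serial analysis of gene expression, SAGE). Each library came from 3 mice, whose age and separate values the labels do not give, so no difference here has a replicate check and every test compares these 2 libraries, not the treatments. Saline tags total 1080798 and bleomycin tags 1099840, and a count of 0 allows up to 2.74 and 2.77 CPM (tag counts scaled to a common library size), for counting error only. Fibroblast markers were present in both libraries, and of the 7 tested 2 were higher and 2 lower in bleomycin, with Col1a2 itself at 1636 and 5613 counts, Col3a1 at 4087 and 6186, Pdgfra at 509 and 323, Dcn at 4861 and 1606 and Tcf21 at 338 and 93, while the leukocyte marker Ptprc had 0 and 1.

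Ion channels are membrane proteins that let chosen ions cross down their gradient. Pore-forming subunits carry the ion, and accessory subunits change where the channel goes and how it opens. Fibroblasts do not fire action potentials as nerve and muscle do, but potassium channels set their resting potential, and calcium entry, stretch-activated channels and lysosomal chloride exchangers take part in contraction, matrix sensing and protein turnover. Because each transcript gives its tag from a set site, a SAGE count does not grow with transcript length, so levels of different genes are compared below as counts or CPM without a length correction. In RNA of sorted cells, fewer cells of a type and less RNA per cell cannot be told apart.

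The tag that the usual form of this method would read was taken for the members that the results turn on, from GENCODE M21 transcripts of GRCm38 matched through the RefSeq record in the table. It is the last CATG site of the transcript with the bases that follow, 27 bases in all, and the sequences are shown because they are the part of each gene that a count stands for. Capitals mark the CATG at which the kit's enzyme is known to cut.
Scn3a: CATGggttttgtaacaccctgctacac
Scn7a: CATGatgacagcttctgtgtaaccgca
Kcns3: CATGtaagataattaaaatgattagct
Kcnq1ot1: CATGtggtctctgtgtagttggcagcc
Cacna1g: CATGtaacttattttctcctttaacct
Kcnj15: CATGgggaaattaacagtgacgttttt
Kcnn4: CATGgccaccactacacatatgccctc
Kcne4: CATGtgcgttgtcacattttccattgc
Of 45 members, 39 matched a transcript, and 0 of those 39 tags was also the last tag of another gene in that annotation. Kcnk2, Clcn4-2, Scn3b, Kcnk3 and Scn9a were among those without a matched transcript. A gene can end at several sites, and the annotated transcripts of Scn3a end in 3 different tags and those of Cacna1g in 7, so the submitters may have counted others.

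The 45 members held 1584 saline and 1177 bleomycin counts, which is 0.147% and 0.107% of all tags. Kcnq1ot1 and Trpc4ap, which encode no channel, are among them. The 5 most abundant members carried 49.4% of member counts in saline and 51.0% in bleomycin. Of the 33 members with at least 10 counts, which were tested, 6 were lower in the bleomycin library and 2 were higher. A call needs an adjusted p under 0.05 in an exact binomial test and a ratio of 2 or more with 0.5 added to each count. The same rule called 16.6% of 9369 genes tested, 8.52% lower and 8.08% higher, against 24.2% of tested members, 18.2% lower and 6.06% higher. The median log2 ratio of bleomycin to saline was −0.44 over the 33 tested members and 0.02 over all tested genes. A sum filter lets in a gene that is high in only 1 library, so these shares describe the tested members and support nothing about channels as a class.

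**Figure D1:**
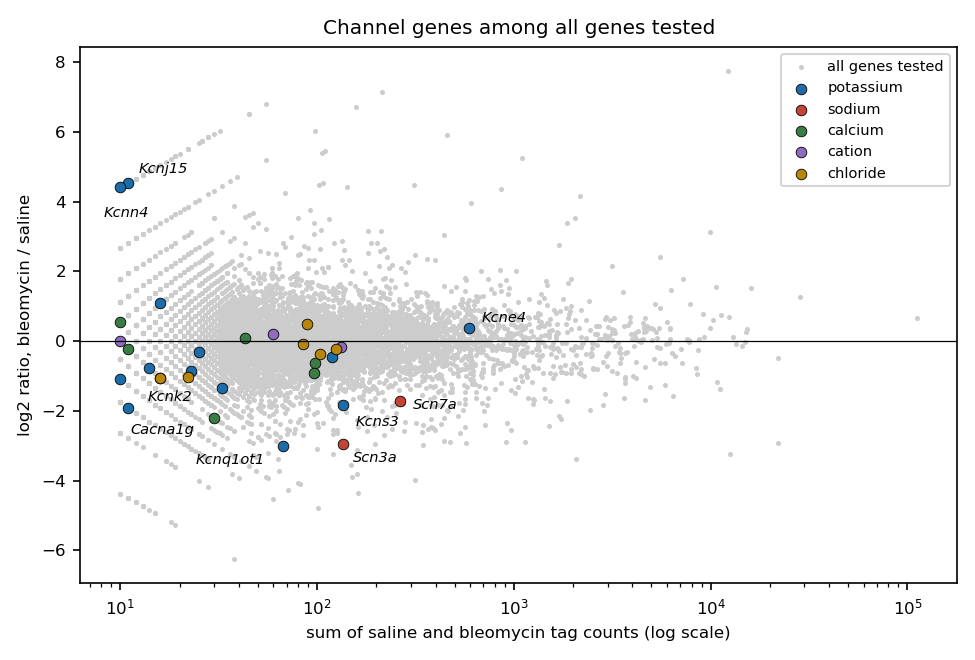
Log2 ratio of bleomycin to saline (vertical axis) against the sum of both tag counts (horizontal log axis). All 9369 tested genes are in grey, with 31 of the 33 tested members coloured by ion. Members lie on both sides of 0, with Scn3a and Kcnq1ot1 lowest. Kcnj15 and Kcnn4, both at 0 counts in saline, stand highest at a height set by the 0.5 added to each count.

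Both pore-forming sodium channel genes that could be tested were lower in the bleomycin library. Voltage-gated sodium channels open on depolarisation and start the action potential of nerve and muscle. Each has a pore-forming alpha subunit and small beta subunits that also act as adhesion molecules.

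Scn3a, an alpha subunit best known from developing neurons, had 120 saline and 15 bleomycin counts. It was 7.91-fold lower (exact 95% interval 4.61 to 14.6, adjusted p = 6.6e-20 by the binomial test with Benjamini-Hochberg adjustment over all tested genes). Scn7a, an atypical alpha subunit that senses extracellular sodium and is not opened by voltage in the usual way, had 203 and 61 counts. It was 3.29-fold lower (2.46 to 4.46, adjusted p = 3.0e-17). Both genes were well counted in saline, where Scn7a ranked 821 and Scn3a 1347 among all genes, and they ranked 2379 and 6122 in the bleomycin library. The third alpha subunit, Scn9a, had only 4 and 1 counts and was not tested.

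Scn3b, a beta subunit, had 11 and 5 counts, a ratio of 0.46 (0.125 to 1.44) whose interval holds 1. The 3 alpha subunits summed to 298 CPM in saline (exact Poisson interval 267 to 332) and 71.0 CPM in bleomycin (56.0 to 88.8), intervals that do not overlap. Most of the alpha level in both libraries came from Scn7a.

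The alpha subunit genes also lie near one another. Genes with the Scn symbol stand together on chromosome 2, so this position is not independent of the choice by symbol. In the RefSeq gene order of GRCm38, Scn3a and Scn7a stand on chromosome 2 with 6 protein-coding genes between them, Scn9a being next to Scn7a. Of those 6, 4 had a row in the table. Scn2a1, an alpha subunit, had 1 and 3 counts, Galnt3, a glycosyltransferase, had 0 in both, Ttc21b, a protein of cilia, had 10 and 11, and Scn9a is given above. Ttc21b, the only tested gene of the 4, had a ratio of 1.11 and an interval of 0.429 to 2.92, which is wide and holds 1. Csrnp3 and Scn1a, which also lie there, were not analysed here.

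**Figure D2:**
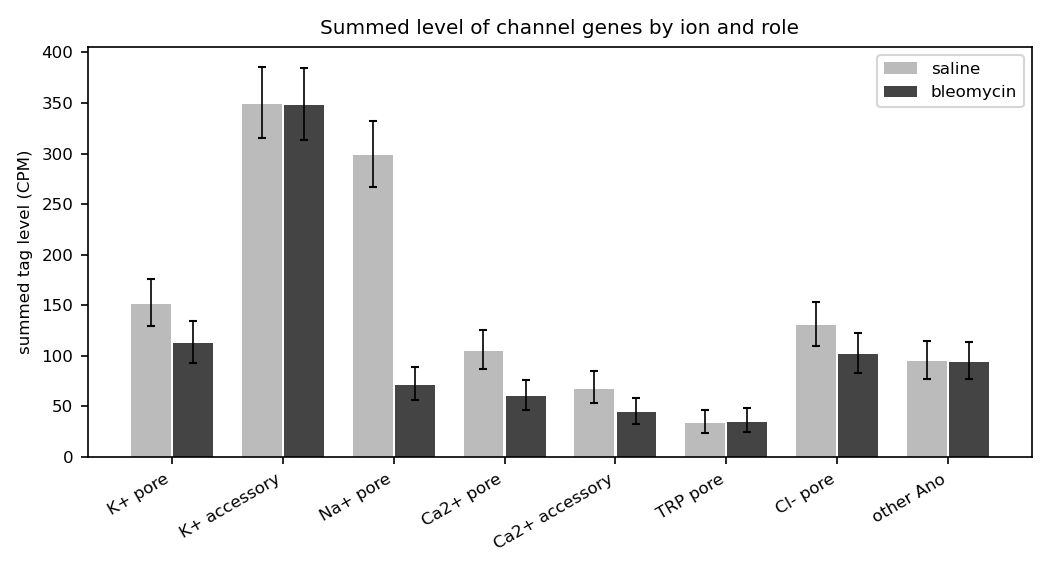
Summed tag level in CPM (bars from 0) of channel genes by ion and role in the saline (light) and bleomycin (dark) library, with exact Poisson 95% intervals for counting error and without Kcnq1ot1 and Trpc4ap, which are no channels, and for sodium with the pore genes alone, so that the bars do not give the sodium group as a whole. Sodium pore genes went from 298 to 71.0 CPM, while potassium accessory genes stood at 349 and 348 CPM.

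Potassium channel genes were called in both directions. They include the channels that hold the resting potential of a cell. Of 14 tested members 3 were lower and 2 higher in the bleomycin library, and 1 of the 3 lower, Kcnq1ot1, is no channel. These are 21.4% lower and 14.3% higher, against 8.52% and 8.08% of all tested genes, shares that describe these few members only. The accessory subunit genes came first in level. Kcne4, a single-span subunit that restrains several voltage-gated potassium channels, was the most abundant of all 45 members with 260 counts in saline and 331 in bleomycin. Its ratio was 1.29 (1.09 to 1.52, adjusted p = 0.011), under the required 2-fold. Kcne4 ranked 627 and 484 among all genes. Its share of the counts of all 45 members was 16.4% in saline (14.6 to 18.3) and 28.1% in bleomycin (25.6 to 30.8).

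Kcns3, a modulatory subunit that makes no channel alone but changes the gating of partner potassium channels, had 106 counts in saline and 29 in bleomycin. It was 3.61-fold lower (2.38 to 5.65, adjusted p = 3.6e-10). Kcnmb1, the beta subunit of the large-conductance calcium-activated channel in smooth muscle, had 14 and 11 counts, and Kcnma1, the pore of that channel, had 1 and 0 and is no member. Since Kcne4 and Kcns3 differed in opposite directions, the summed level of the 4 accessory genes was 349 CPM in saline (315 to 386) and 348 CPM in bleomycin (314 to 385).

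Among potassium pore genes, counts were low. Kcnj8, an inward rectifier that forms ATP-sensitive channels in vessel wall cells, was the most abundant with 69 and 50 counts, a ratio of 0.733 (0.499 to 1.07) that was not called. Kcnk2, a leak channel of the tandem-pore family opened by stretch and lipids, had 24 counts in saline and 9 in bleomycin. It was 2.64-fold lower (1.18 to 6.45) with an adjusted p of 0.049 from the binomial test, which ran from 0.033 to 0.071 over the alternatives tried other than Bonferroni adjustment. The call of Kcnk2 was lost with size factors of DESeq2 and with the minimum of 5 counts or none. Kcnh2, a delayed rectifier of heart muscle, had 15 and 8 counts and was not called.

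The 2 higher members had no saline count. Kcnj15, an inward rectifier found in kidney and other epithelia, had 0 counts in saline and 11 in bleomycin. It was 3.71-fold higher against a floor of 3 counts in the saline library (exact limit 2.54, adjusted p = 0.0029 by the binomial test). Kcnn4, the intermediate-conductance calcium-activated channel known from dividing fibroblasts, lymphocytes and red cells, had 0 and 10 counts. It was 3.37-fold higher against the same floor (exact limit 2.27, adjusted p = 0.0052 by the binomial test). Both calls rest on few tags, and each was lost under Bonferroni adjustment. Both genes were tested only through their bleomycin counts. A gene at 0 in saline that reached the minimum of 10 counts was called, so these calls add nothing beyond the counts. Related calcium- or sodium-activated channels had Kcnn1 at 7 and 3 counts and Kcnt2 at 9 and 2, with intervals that hold 1, and Kcnn3 had 0 and 2 and is no member. The leak channel Kcnk13 had 5 and 11 counts, and Kcnk3, an acid-sensitive leak channel of smooth muscle of lung arteries, had 9 and 5.

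Kcnq1ot1 matched by its symbol but encodes no channel. It is a long noncoding RNA transcribed from within Kcnq1 on the opposite strand and is known for silencing neighbouring imprinted genes. It had 60 counts in saline and 7 in bleomycin and was 8.48-fold lower (3.87 to 21.98, adjusted p = 2.8e-10). Kcnq1 had 2 and 0 counts. The sources used here do not say whether counting used strand, so tags from both strands of the locus could have been counted together.

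**Figure D3:**
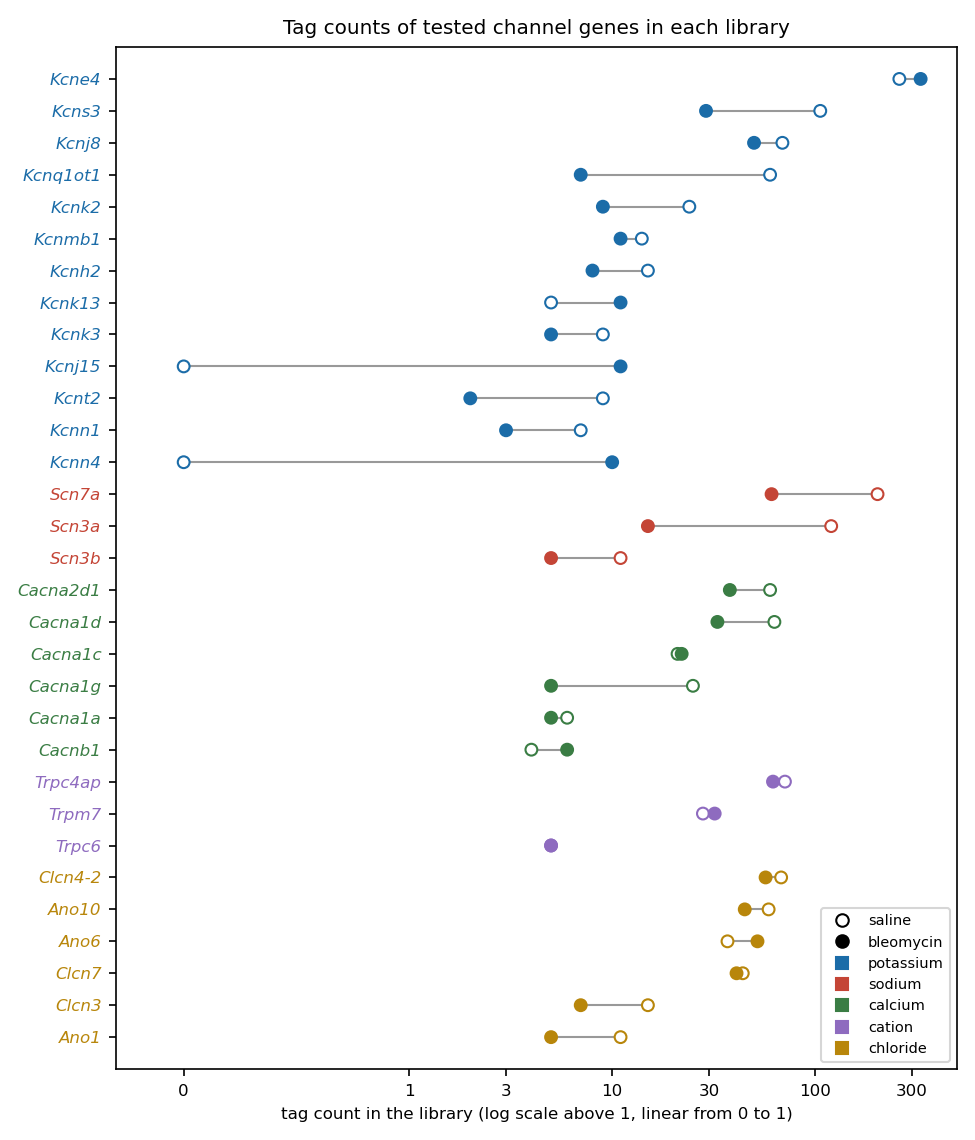
Tag count (horizontal axis, log above 1) of 31 of the 33 tested members in the saline (open) and bleomycin (filled) library. Members are coloured by ion and ordered by abundance within it. Lines join the libraries: Scn3a spans 120 to 15 counts and Kcnq1ot1 60 to 7, while Kcnj15 and Kcnn4 start at 0.

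Of 6 tested calcium channel genes, 1 was lower in the bleomycin library and 0 were higher, and this 16.7% called is near the 16.6% of all tested genes. Voltage-gated calcium channels admit calcium on depolarisation, and in smooth muscle this triggers contraction. Cacna1g, the pore of a low-voltage-activated (T-type) channel, had 25 counts in saline and 5 in bleomycin and was 4.94-fold lower (1.86 to 16.5, adjusted p = 0.0021). Cacna1d, the pore of a long-lasting (L-type) channel, had 63 and 33 counts. Its ratio of 0.53 (0.337 to 0.820, adjusted p = 0.014) did not reach the required 2-fold. Cacna1c, the main L-type pore of heart and smooth muscle, had 21 and 22 counts, a ratio of 1.06. The interval of its ratio, 0.556 to 2.03, does not overlap that of Cacna1g, 0.0605 to 0.538, although the difference itself was not tested. Cacna1a, a pore best known at nerve endings, had 6 and 5.

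The calcium accessory genes were led by Cacna2d1, an extracellular subunit that carries channels to the surface and also binds thrombospondins, with 60 and 38 counts. Its ratio was 0.640 (0.415 to 0.978) with an adjusted p of 0.10, so it was not called. The beta subunit gene Cacnb1 had 4 and 6 counts. All 8 calcium members summed to 172 CPM in saline (149 to 199) and 104 CPM in bleomycin (85.9 to 125).

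No TRP gene was called among 3 tested, of which 1, Trpc4ap, is no channel, while 16.6% of all tested genes were called. So few tested genes say little about TRP channels. TRP channels are cation channels that respond to heat, stretch, lipids and receptor signalling. Trpm7, a channel joined to a kinase that passes magnesium and calcium, had 28 counts in saline and 32 in bleomycin, a ratio of 1.16 (0.674 to 1.99). Trpc6, a lipid-gated calcium entry channel studied in myofibroblasts, had 5 in each library. Trpm4, opened by calcium, had 4 and 1 and was not tested. Trpc4ap, an adaptor that binds a TRP channel and is itself no channel, had 71 and 62. Trpv4, a stretch- and heat-sensitive channel, was at 0 counts in both libraries, which allows up to 2.74 and 2.77 CPM. Kcna3 and Trpa1 were not analysed here.

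The stretch-activated channels Piezo1 and Piezo2 carry their older symbols Fam38a and Fam38b in the table, so the symbol rule did not take them, and they are given apart. Fam38a had 41 counts in saline and 95 in bleomycin and was 2.34-fold higher (1.61 to 3.47, adjusted p = 2.8e-05). Fam38b had 3 and 26 counts and was 8.76-fold higher (2.69 to 45.2, adjusted p = 7.3e-05). Fam38b was tested only through its bleomycin counts, and its 3 saline counts equal the floor used above. Both genes were called, and with them the counts of called genes would be 4 higher and 6 lower of 35 tested. These are 11.4% higher and 17.1% lower, against 8.08% and 8.52% of all tested genes. The tag of Fam38a, shown because it was called, was
Fam38a: CATGaccaccagggctggcagagctcc

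No chloride gene was called among 6 tested, while 16.6% of all tested genes were called. With so few tested, this says little about chloride channels. The CLC genes found here encode mostly exchangers of endosomes and lysosomes, which help to acidify them. Clcn4-2 had 68 counts in saline and 57 in bleomycin, Clcn7, which works with its partner Ostm1 in lysosomes and bone-resorbing cells, had 44 and 41, and Clcn3 had 15 and 7. Their ratios were 0.848 (0.586 to 1.22), 0.942 (0.601 to 1.48) and 0.472 (0.163 to 1.23). Ano1, the calcium-activated chloride channel of epithelia and smooth muscle, had 11 and 5 counts. Of the anoctamers that are not known mainly as chloride channels, Ano10 had 59 and 45 counts, and Ano6, which moves phospholipids between membrane leaflets, had 37 and 52, a ratio of 1.42 (0.915 to 2.23). The 9 chloride members summed to 225 CPM in saline (198 to 255) and 196 CPM in bleomycin (170 to 224), levels whose intervals overlap.

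**Figure D4:**
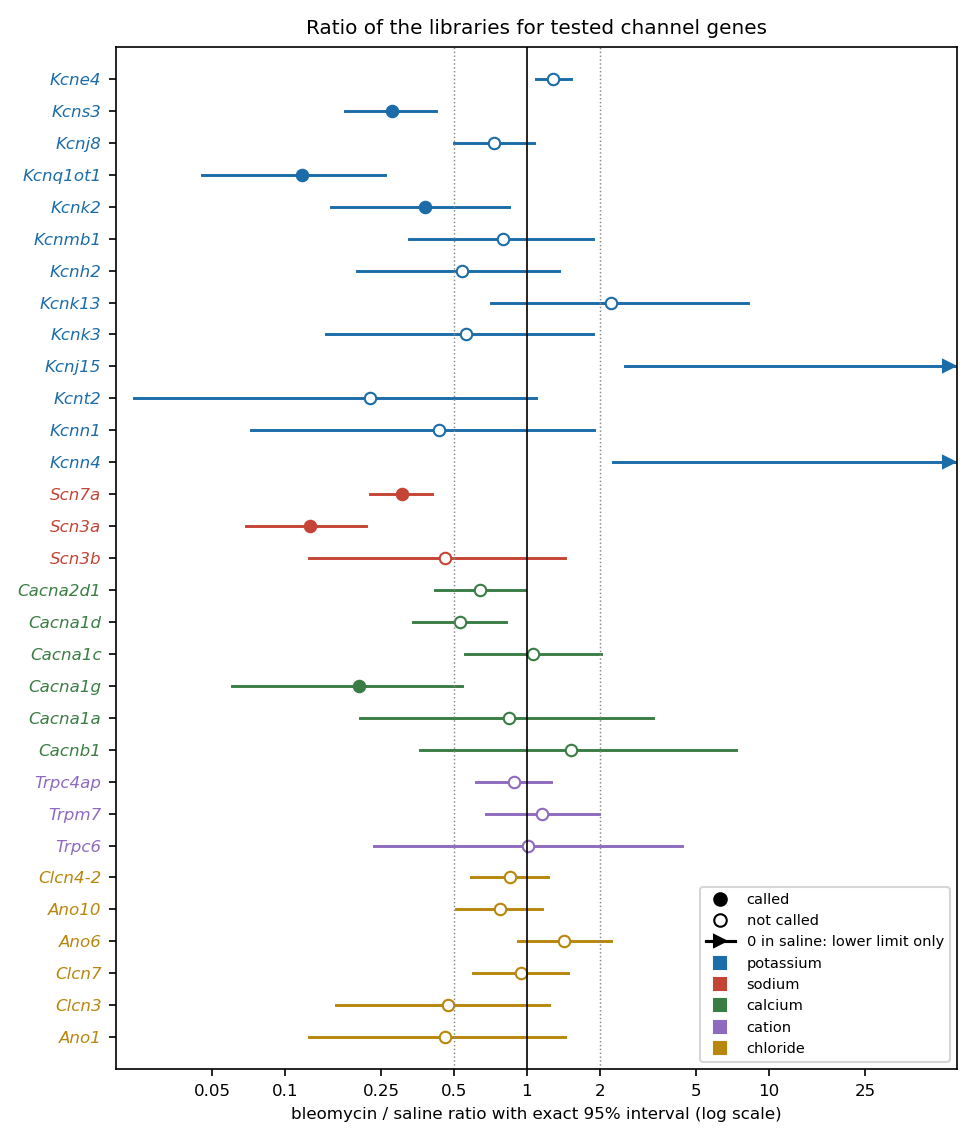
Ratio of bleomycin to saline (log axis) with exact 95% intervals for 31 of the 33 tested members. Points are filled where called, and dotted lines stand at ratios of 0.5 and 2. Scn3a, Scn7a, Kcns3 and Kcnq1ot1 have whole intervals below 0.5, and arrows mark Kcnj15 and Kcnn4, whose ratio has only a lower limit.

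The 12 members with 5 to 9 counts were not tested. Of these, 10 had more counts in the saline library and 2, Kcnip3 with 3 and 6 and Kcnh1 with 2 and 5, had more in the bleomycin library. The same split was not taken over all genes with 5 to 9 counts, so it shows nothing about channels as a class. Just inside the threshold, with a sum of 5, Ano5 had 3 and 2 counts, Cacnb3 and Clcn6 had 5 and 0, and Scn9a and Trpm4 had 4 and 1. Just outside it, with a sum of 4, Kcnj2, Kcnmb2, Scn2a1 and Trpc1 each had 1 and 3.

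Other channels, pumps and regulators of channels, which the symbol rule leaves out, were taken from 7 lists that hold 200 genes in all. A row was found for 142 of them, and 67 were tested. Of these, 9 were lower and 3 higher in the bleomycin library, 17.9% of those tested against the 16.6% of all genes, and their median log2 ratio was −0.28. Among connexins and pannexins, which join neighbouring cells or open to the outside, Gja1, the main connexin of fibroblasts and heart, was the most abundant at 119 and 184 counts, with a ratio of 1.56 (1.24 to 1.99) under the required 2-fold.

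Pumps and exchangers build the ion gradients that channels use. Atp2a3, a calcium pump of the endoplasmic reticulum, had 18 and 3 counts, and the exchanger gene Slc24a3 had 35 and 10, and both were lower. Atp2a2, the widespread form of that calcium pump, had 206 and 193 and was not called.

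Chloride channels outside the rule had 3 of 10 tested genes lower and 1 higher, 40% called against 16.6% of all tested genes. All of these called genes were of the CLIC family, so the share describes that family's genes here and not chloride channels as a class. Clic4, an abundant intracellular protein of the CLIC family, had 783 counts in saline and 378 in bleomycin and was lower, with a ratio of 0.488 (0.431 to 0.553). Clic3, with 10 and 0 counts, was 3.30-fold lower against a floor of 3 counts in the bleomycin library (exact limit 2.22). Clic5, with 13 and 0, was 4.28-fold lower against that floor (exact limit 3.01). Both were tested only through their saline counts. Clic1 had 31 and 72 and was higher. Lrrc8a, the essential subunit of the volume-regulated anion channel, had 108 and 85 and was not called. Calcium release and store-operated channels had 1 of 17 tested genes lower, Tpcn1, a channel of endosomes and lysosomes with 33 and 5 counts. The 5.88% lower in this list is under the 8.52% of all tested genes. The most abundant gene of the list, Pkd2, a polycystin channel of cilia and the endoplasmic reticulum, had 216 and 200 and was not called. Its partner Pkd1 had 227 and 123, a ratio of 0.548 (0.436 to 0.685) that stayed short of 2-fold. Gated by ATP, P2rx6 was lower with 42 and 11 counts, and P2rx4, with 22 and 34, was not called. Among ligand-gated channels Gria1, a glutamate receptor subunit, was lower with 35 and 2 counts, and Gabra3, the most abundant, had 57 and 43. Partners of member channels had 0 of 7 tested genes called, against 16.6% of all tested genes, which says little for so few genes.

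Markers of other cell types differed between the same 2 libraries, and their part in the channel results was not tested. All 8 tested endothelial markers were lower, and the 10 on the list summed to 506 counts in saline and 30 in bleomycin, with Kdr at 8 and 0 and Emcn at 0 in both. Pericyte markers, of which Trpc6 is also a member, had 2 of 6 tested lower and summed to 170 and 101 counts over 7 matched genes. Cspg4, the most abundant of them, went the other way with 31 and 49 counts and was not called, and Rgs5 had 2 in each library. Smooth muscle markers had 3 of 7 tested lower and 1, Des, higher, with Myh11 at 237 and 106 counts. They summed to 848 and 1002 counts, but Des alone had 169 and 571, and the other 7 genes summed to 679 and 431. Alveolar type 2 markers had 1 of 2 tested lower and summed to 163 and 10 counts, with Lamp3 at 0 in both, and airway markers had 2 of 2 lower and summed to 581 and 168. Neural and Schwann cell markers summed to 11 counts in saline and 23 in bleomycin over 5 matched genes, with S100b at 4 and 18. Leukocyte markers summed to 8 and 4 counts over 5 matched genes, with Cd3e at 0 in both.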

How the data were processed

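The deposited table gives a whole-number tag count per gene for each of 2 SOLiD SAGE libraries of sorted lung fibroblasts. An aligner, BWA 0.6.2, and a build, mm9, appear in the submitters' processing notes without a role, and no label says how tags were assigned, whether strand was used or whether the deposited counts were scaled, so tests hold only for raw counts. After 1 blank line was dropped, 16040 genes remained. The 33 entries named by a phrase, which may pool genes, stayed in totals but matched no gene. Names were matched through RefSeq records of GRCm38 for 90.3% of genes. That build differs from mm9, so no gene coordinates are given.

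Libraries were scaled by TMM (edgeR 4.0.16, R 4.3.3), with factors of 1.01 and 0.986. Its quasi-likelihood test needs replicates, so each gene with at least 10 counts was given a two-sided exact binomial test (scipy 1.17.1), adjusted by Benjamini-Hochberg over 9369 genes. Ratios have Clopper-Pearson 95% intervals. Log2 ratios have 0.5 added to each count. The test was checked on simulated counts with counting error only, so variation between mice or library preparations was not checked. It called 38% of 2.5-fold, 60% of 4-fold and 87.5% of 8-fold changes, and 0.0438% of unchanged genes. Alternatives were total counts, DESeq2 1.42.0 size factors, other count minimums, ratios, adjustments and added counts, and gene roles. Members and lists were chosen with earlier results of these data known. Named genes are every called member, the 3 most abundant tested members by ion and role, channels known in lung mesenchyme, and, of the other lists, each called gene and the most abundant, except that some genes under this rule are not reported here. Genes between Scn3a and Scn7a, low members and further list genes were named after their values were seen.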

Additional observations from a re-analysis of the deposited data

How the results depend on the processing

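Each library stands alone for its group, so no library could be left out. No paired analysis was possible because each group has 1 library. All 8 called members kept their call with total counts, and 7 did with DESeq2 size factors or a ratio of at least 3, where Kcnk2 was lost. Under Bonferroni adjustment 4 did, where Cacna1g, Kcnj15, Kcnk2 and Kcnn4 were lost. Adding 5 to each count could not change a call, because calls always used 0.5, and it moved only the log2 ratios. That of Kcnj15 went from 4.54 to 1.69 and that of Kcnn4 from 4.41 to 1.60. With a minimum of 50 counts 15 members were tested and 0 were called higher. Kcnj15 and Kcnn4 fell below that minimum, so their calls could not be kept. Members called higher were 0 under Bonferroni adjustment, 4 with no minimum ratio, and 4 with Fam38a and Fam38b, an alternative chosen after seeing the data. In the other lists, genes called higher were 5 with a minimum of 5 counts or none, 8 with no minimum ratio and 1 under Bonferroni adjustment. Genes called lower there were 3 with a minimum of 50 counts, where 34 genes were tested in place of 67, and 4 under Bonferroni adjustment. The median log2 ratio of members was −0.64 with a minimum of 5 counts or none, over 45 members, and −0.81 over the 22 tested pore-forming genes. The ratio of summed levels, 0.751 for all members, was 0.646 without Kcne4 and 0.529 for pore-forming genes. For potassium it was 0.840, then 0.507 without Kcne4 and 0.743 for pore-forming genes, and for sodium 0.577, then 0.821 without Scn7a and 0.238 for pore-forming genes. The cause was not tested beyond the genes each setting leaves out. Depth limits the low members: Kcnk13, with 16 counts and a ratio of 2.22, was not called.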
